A study of Schizosaccharomyces pombe with 56 samples.

Results

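Tf2 elements are the full-length retrotransposons of fission yeast (Schizosaccharomyces pombe), and 3 of the 13 annotated copies, Tf2-4, Tf2-6 and Tf2-11, lay under a region of H3K9me2 that the authors' deposited table called higher in quiescent cells. The members are these 3 copies and the 3 of 2192 listed regions that overlap their annotated coding body by at least 1 bp. They were chosen from the same table that gives their levels, so the levels below are a description and carry no test of their own. The 2 groups are wild type (strain 975 h+) after 24 h in medium without nitrogen and the same strain at 0 h, labelled control, with 6 H3K9me2 libraries each in the labels. Both groups were grown in the same minimal medium before the nitrogen was removed. The series also holds H3K9me2 libraries of clr4D and ago1D strains, wild type at 1 h, H3K9me3 libraries and 26 input libraries. None of these were analysed here. The labels give 4 inputs for the 6 H3K9me2 libraries of each of the 2 groups, so some have no input of their own. Nothing in the labels says whether the libraries of a group came from separate cultures.

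A Tf2 element carries a long terminal repeat (LTR) at each end and a single reading frame between them, which is cut into a capsid protein, a protease, a reverse transcriptase with RNase H and an integrase, in that order. It spreads by copying its RNA into DNA, and existing copies also exchange sequence by recombination. In growing cells Tf2 transcription is kept low, in part by the CENP-B-like proteins Abp1, Cbh1 and Cbh2, which bring histone deacetylases to the elements. H3K9me2 is the mark that the methyltransferase Clr4 places on silent heterochromatin, where Swi6 binds it.

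Each member's coding body is 1 exon of 4002 bp, and each region lay wholly inside it, in the 3′ part. Tf2-4 is on the minus strand of chromosome I at 3361547 to 3365548 (RefSeq annotation, ASM294v3), and its region ran from 3361774 to 3364275 in the deposited coordinates (ASM294v2). The 3 chromosomes of ASM294v3 are as long as the highest region end that the table gives on each. Tf2-6 is on the plus strand of chromosome I at 4022492 to 4026493, with its region at 4023615 to 4026261. Tf2-11 is on the plus strand of chromosome II at 4414657 to 4418658, with its region at 4415836 to 4418439. The regions covered 62.5% of the body of Tf2-4, 66.1% of Tf2-6 and 65.1% of Tf2-11.

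The same stretch of the element was covered in all 3. Counted from the first coding base, the covered part ran from base 1274 to 3775 in Tf2-4, from 1124 to 3770 in Tf2-6 and from 1180 to 3783 in Tf2-11. The first covered bases spread over 150 bp and the last over 13 bp, although Tf2-4 is in the opposite orientation on the chromosome. The members are nearly the same sequence there, so their covered parts are not independent observations. Bases 1274 to 3770, a stretch of 2497 bp, were covered in every member. The first 1273, 1123 and 1179 bases of Tf2-4, Tf2-6 and Tf2-11 lay outside the regions, and so did the LTRs on either side.

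**Figure D1:**
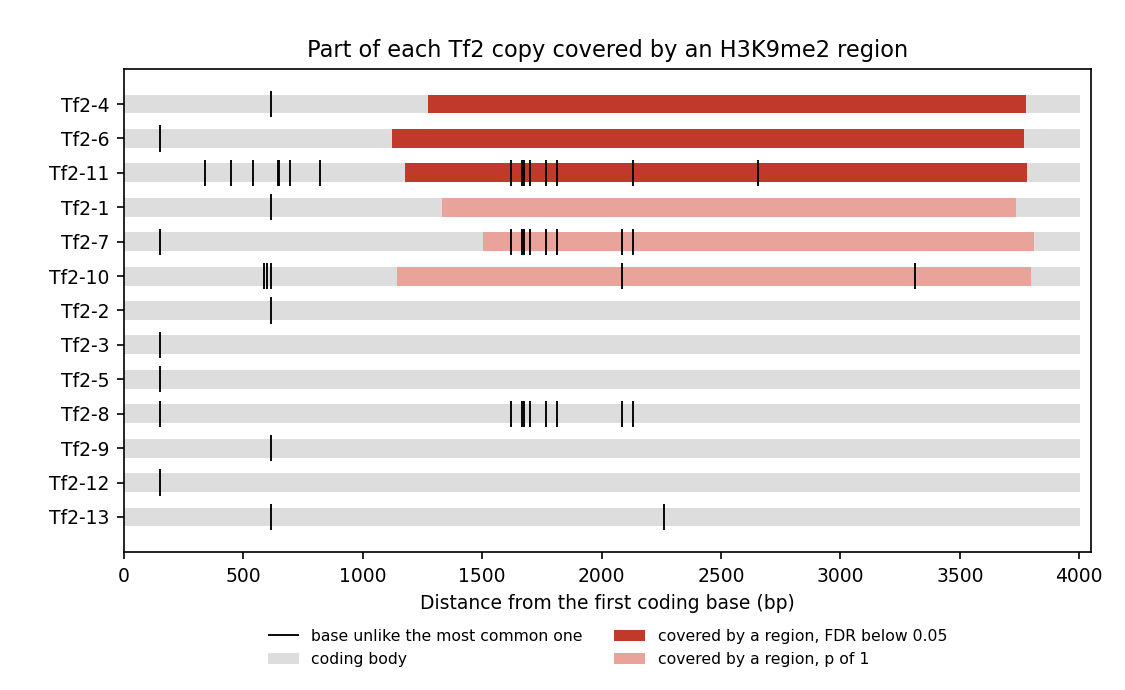
Coding bodies of the 13 Tf2 copies (grey), drawn from the first coding base in bp, with the part under an H3K9me2 region in red for the 3 members and in pale red for the 3 other copies under a region. Black ticks mark bases unlike the most common one at that position. The covered parts start between bases 1124 and 1505 and end between bases 3736 and 3811, and 7 copies lie under no region.

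The copies are almost the same sequence, which limits what the table can say of any one of them. The stretches below come from the RefSeq sequence of ASM294v3, in the direction of the reading frame, with capitals where the 3 members differ. The first set, bases 1611 to 1820, is shown because it holds 6 of the 8 differences between the members inside the covered part.
Tf2-4 and Tf2-6: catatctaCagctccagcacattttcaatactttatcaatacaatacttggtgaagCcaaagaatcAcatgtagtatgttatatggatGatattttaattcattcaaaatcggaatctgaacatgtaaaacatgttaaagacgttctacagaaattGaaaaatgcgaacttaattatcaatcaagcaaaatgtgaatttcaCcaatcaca
Tf2-11: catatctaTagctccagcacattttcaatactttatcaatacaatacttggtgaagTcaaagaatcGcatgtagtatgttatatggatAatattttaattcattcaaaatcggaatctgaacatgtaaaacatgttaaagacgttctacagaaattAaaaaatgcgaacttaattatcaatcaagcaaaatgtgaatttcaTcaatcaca
These bases lie at chrI:3363729-3363938 (minus strand) in Tf2-4, chrI:4024102-4024311 (plus strand) in Tf2-6 and chrII:4416267-4416476 (plus strand) in Tf2-11.

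With Tf2-4 first and Tf2-11 second, the 8 substitutions in the covered part were C1619T, C1667T, A1677G, G1699A, G1767A, C1812T, G2130A and G2655A, counted from the first coding base. Tf2-4 and Tf2-6 had none between them in the covered part. They differed at 2 bases of the whole body, T153A and T617C, both before it. These are the only coding bases that tell Tf2-4 from Tf2-6, and the stretches around them (bases 133 to 173 and 597 to 669) read as follows.
Tf2-4: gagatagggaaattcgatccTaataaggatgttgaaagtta
Tf2-6: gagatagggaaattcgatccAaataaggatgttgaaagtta
Tf2-4: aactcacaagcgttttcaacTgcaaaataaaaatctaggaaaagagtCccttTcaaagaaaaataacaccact
Tf2-6: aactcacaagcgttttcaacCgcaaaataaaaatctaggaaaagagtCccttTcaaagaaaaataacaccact
Tf2-11: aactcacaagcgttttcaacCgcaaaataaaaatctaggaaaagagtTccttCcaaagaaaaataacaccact
In Tf2-4 they lie at chrI:3365376-3365416 and chrI:3364880-3364952 (minus strand), in Tf2-6 at chrI:4022624-4022664 and chrI:4023088-4023160 (plus strand), and in Tf2-11 the second lies at chrII:4415253-4415325 (plus strand).

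Across all 13 copies 23 coding positions differed, 11 before the part covered in every member, 12 inside it and 0 after it. Within that covered part, the longest stretch without a difference ran over 656 bp, from base 2656 to 3311, and its first 100 bases are the same in every copy.
All 13 copies: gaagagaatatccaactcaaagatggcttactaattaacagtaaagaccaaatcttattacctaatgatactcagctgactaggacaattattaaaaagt
In Tf2-4 this stretch lies at chrI:3362794-3362893 (minus strand).

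The whole coding body of Tf2-4 was identical to those of Tf2-1, Tf2-2 and Tf2-9, and that of Tf2-6 to those of Tf2-3, Tf2-5 and Tf2-12. In the part covered in every member, these 8 copies were identical to each other, and 5 of them, Tf2-2, Tf2-3, Tf2-5, Tf2-9 and Tf2-12, lay under no region. The full region sequence of Tf2-4 and that of Tf2-6 each occurred 8 times in the genome, and that of Tf2-11 once. Of the 50-base words in the regions, 100% occurred elsewhere in the genome for Tf2-4 and Tf2-6, and 97.8% for Tf2-11. With words of 400 bases, the longest fragment that the labels' protocol gives for the sonicated chromatin, the share was 100% for Tf2-4 and Tf2-6 and 63.7% for Tf2-11. The median 50-base word occurred at 13 places in each of the 3. Read placement among Tf2-4, Tf2-6 and their identical copies is therefore not determined by sequence inside the regions, and how the authors handled reads with several matches is not given in the sources used here.

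H3K9me2 at the members was well above the minimum of the table at 24 h and at the minimum at 0 h. The 24 h mean of Tf2-4 in the authors' deposited table was 51.8 normalised reads, against 0.770 at 0 h. Tf2-11 had 41.2 at 24 h, against 0.770 at 0 h, in the authors' deposited table. Tf2-6 had 38.5 at 24 h, against 0.770 at 0 h, in the authors' deposited table. All 3 thus had the same 0 h value, the minimum, as had 1154 of the 2192 regions. Whether input reads were subtracted before the minimum was set is not given in the sources used here, and in bulk libraries a mark in more cells, on more copies or at higher density cannot be told apart.

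The log2 change (24 h minus 0 h) in the authors' deposited table was 6.07 for Tf2-4 (FDR = 0.00194), 5.74 for Tf2-11 (FDR = 0.00247) and 5.65 for Tf2-6 (FDR = 0.00298). Against 3 counts per library in place of the minimum, 2.31 normalised reads, the levels were at least 22.4-fold higher at 24 h for Tf2-4, 17.8-fold for Tf2-11 and 16.7-fold for Tf2-6. These, and the folds given below as at least or as lower bounds, are bounds on the deposited values only. The level under the minimum is not known, so the true change may be smaller. At the FDR of 0.05 the same table called the regions of all 3 members higher, as it did 453 of all 2192 regions (20.7%). Another 10 (0.456%) were called lower. The members are the 3 called copies among the 6 Tf2 copies under a listed region, so their call was fixed by the choice. The regions called higher were 32.7% of the 1385 regions with a p below 1. The members' median log2 change was 5.74, beside 4.75 for all regions called higher and 2.43 for all listed regions. This comparison follows the same choice.

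The members were neither the strongest nor the densest regions. By the 24 h mean in the authors' deposited table, Tf2-4 ranked 199, Tf2-11 304 and Tf2-6 333 of 2192. Their regions were wide, with a median of 2604 bp beside 1222 bp for the regions called higher and 1557 bp for all listed regions. Per kb of region they held a median of 15.8 normalised reads at 24 h, beside 22.2 for the regions called higher and 10.5 for all.

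**Figure D2:**
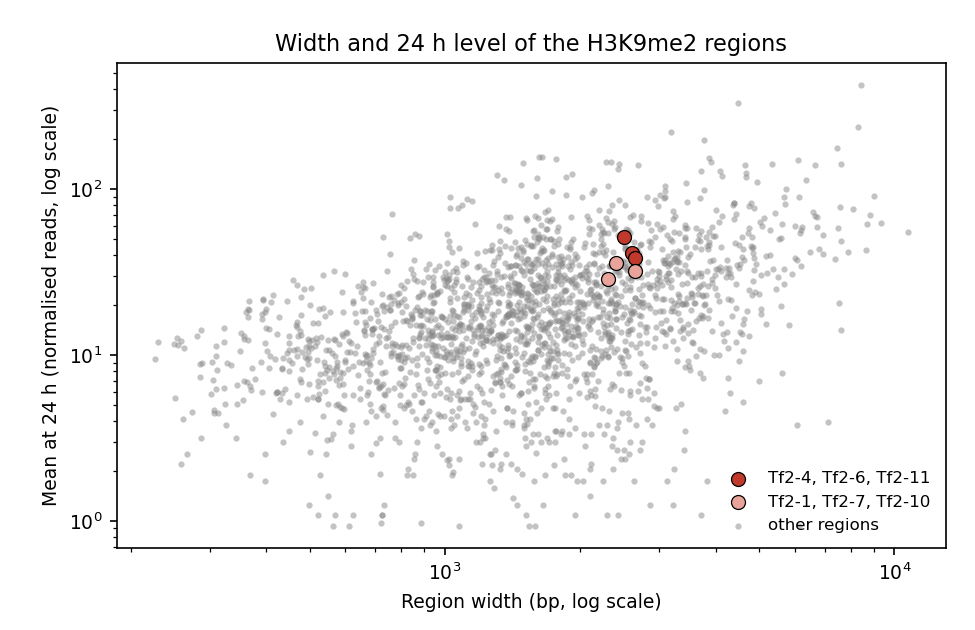
Width in bp (x axis, log scale) and 24 h mean in normalised reads (y axis, log scale) of the 2024 regions with reads recovered above the minimum, each point 1 region. Tf2-4, Tf2-6 and Tf2-11 (red) lie between 38.5 and 51.8 normalised reads, and Tf2-1, Tf2-7 and Tf2-10 (pale red) between 28.7 and 35.7, all with widths from 2307 to 2654 bp.

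Besides the members, 3 more copies lay under a region of the same table, Tf2-1, Tf2-7 and Tf2-10, all listed with a p of 1, and 7 lay under none. In the authors' deposited table Tf2-1 had 35.7 normalised reads at 24 h, against 0.770 at 0 h. Tf2-10 had 32.2 at 24 h, against 0.770 at 0 h, in the same deposited table. By the authors' deposited table Tf2-1 changed by 5.54 and Tf2-10 by 5.39 on the log2 scale, beside 5.65 for Tf2-6, the lowest member. Tf2-7 was the exception among the 6, with 28.7 normalised reads at 24 h, against 11.1 at 0 h, and a log2 change of 1.37 in the authors' deposited table. The covered part was the same stretch again, in copies of nearly the same sequence. It ran from base 1335 to 3736 in Tf2-1, 1505 to 3811 in Tf2-7 and 1146 to 3799 in Tf2-10. Bases 1505 to 3736, 55.8% of the body, were covered in all 6. Tf2-8, whose body is identical to that of Tf2-7 and which starts 565 bp from it, lay under no region.

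Each group mean could be resolved into whole reads per library, because 1 read adds a fixed amount to the mean that depends on its library. At 24 h reads above the minimum came from 3 libraries, called A, B and C here, and at 0 h from 2, called D and E. Which replicate of the labels each of them is was not determined, and no other library rose above its minimum where the means could be resolved. This was so for 2175 of 2192 means at 24 h and 2177 at 0 h, the 6 Tf2 regions among them. The counts are whole reads above the minimum of a library. At 24 h library A was above its minimum in 1998 resolved regions, B in 1024 and C in 342. A count of 0 therefore need not mean that no read fell in a region, and no counting limit is set on it. Whether input reads were subtracted first is not known.

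Library C held most of the Tf2 signal at 24 h. At Tf2-4, C had 269 reads, A had 69 and B had 0. At Tf2-6, C had 200 reads, B had 40 and A had 0. At Tf2-11, C had 189 reads, A had 77 and B had 0. Thus a second library was above its minimum at each member, A at Tf2-4 and Tf2-11 and B at Tf2-6, and D and E had 0 reads at all 3 at 0 h. C gave 78.4% of the 24 h signal above the minimum at Tf2-4, 78.8% at Tf2-6 and 69.6% at Tf2-11.

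At Tf2-1 and Tf2-10 C alone was above its minimum, with 235 and 211 reads. At Tf2-7, C had 177 reads, A had 10 and B had 0 at 24 h, and E had 55 and D had 0 at 0 h. The counts of C ranged from 177 to 269 over the 6 copies, or from 72.6 to 108 reads per kb of region. For Tf2-4 the exact Poisson 95% interval of the count in C was 238 to 303 and for Tf2-6 173 to 229.7. These intervals cover counting error only and treat the counts as raw. Counts above a minimum need not be raw, so the counting error may be larger. Of the 451 resolved regions called higher, 320 had signal in 2 libraries and 131 in 3, while 688 of the 806 resolved regions with a p of 1 had signal in 1.

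**Figure D3:**
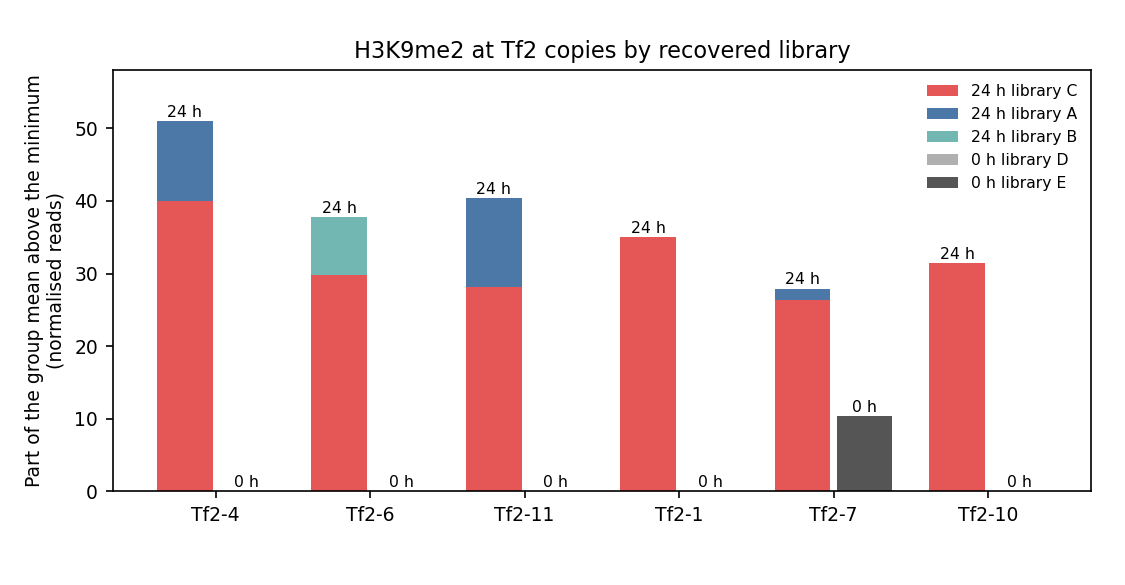
Part of the group mean above its minimum, in normalised reads, for the 6 Tf2 copies under a region, with 24 h left of 0 h and the bars split by the library the reads were recovered from. No error bars are drawn, since each bar is 1 mean. Library C gives from 26.3 to 40.0 normalised reads at every copy, and at 0 h Tf2-7 alone is above the minimum.

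Without library C the members stayed above the 0 h minimum at lower levels. Tf2-4 then had 14.6 normalised reads at 24 h and a log2 change of 4.24, Tf2-6 had 10.8 and 3.81, and Tf2-11 had 16.1 and 4.39. Their lower bounds became 6.30-fold, 4.67-fold and 6.99-fold. That some signal remained was fixed by the choice of members, because every resolved region called higher had signal in 2 or 3 libraries. Tf2-1 and Tf2-10, where C alone was above its minimum, were left with a log2 change of 0.02 each. The log2 change of Tf2-7 turned to -2.00. These values have no test and assume that 5 of the 6 libraries of each group entered the table. The name of the deposited set holds the digits 1, 3, 4, 5 and 6, which were read here as replicate numbers.

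Among the resolved regions library C held the fewest reads of the 3. A held 215470 reads there, B 47317 and C 18288. The 6 Tf2 regions took 1281 of these reads of C (7.00%), 156 of A (0.0724%) and 40 of B (0.0845%). At 24 h 12 regions lay above the search limit of 600 normalised reads and were not resolved. The totals of A, B and C over the whole table, and the Tf2 shares of them, are therefore not known. Of 2024 regions with recovered reads above the minimum, 12 had more than 50% of their signal from C, and 6 of these were the Tf2 regions. Repeated sequence made up most of the 12. A word counted as repeated if it occurred at more than 1 place in the genome, the same region included. In 28 regions at least 50% of the 50-base words were repeated. Of these, 10 had more than 50% from C, against 2 of the 1992 others. Without the 6 Tf2 regions these were 4 of 22. The 4 include the adjoining regions over SPOM_SPBPJ4664.02, with 65.3% and 70.4% of words repeated at 50 bases and 0% at 400 bases. These 22 regions had a median of 28.6% from C and ranged from 0% to 100%, with 5 at 0 reads of C, and the 1992 others had a median of 0%. The part of repeated sequence in the signal of library C was not tested.

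**Figure D4:**
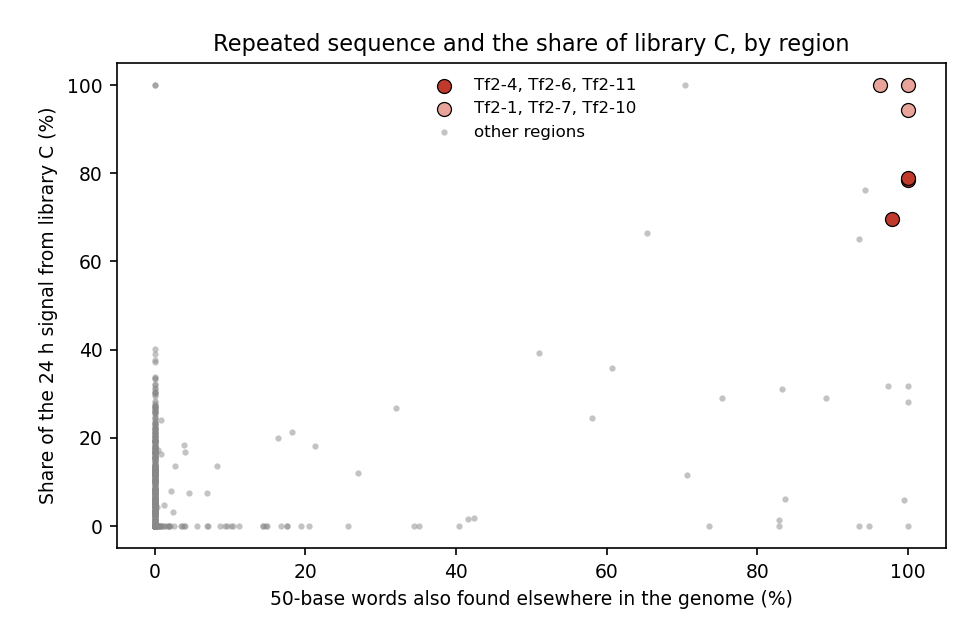
Share of 50-base words that occur at more than 1 place in the genome, the same region included (x axis, %). The y axis is the share of the 24 h signal above the minimum that came from library C (%), each point 1 region. The 3 members (red) lie at 97.8% or more of repeated words and 69.6% to 78.8% from C, Tf2-1, Tf2-7 and Tf2-10 (pale red) lie at 94.3% or more from C, and other repeated regions spread over the whole range.

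The regions over the members overlapped antisense transcripts and no other coding gene. At Tf2-4 the annotation gives the long non-coding RNA SPOM_SPNCRNA.3503, at Tf2-6 SPOM_SPNCRNA.3793 and SPOM_SPNCRNA.3794, and at Tf2-11 SPOM_SPNCRNA.6601 and SPOM_SPNCRNA.6602, all on the strand opposite to the element. ChIP reads carry no strand, so the mark cannot be assigned to one of the overlapping genes.

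The coding neighbours had regions of their own in part, separate from the element. Next to Tf2-4, 543 bp from its body, lies dhp1, encoding a 5′ to 3′ exoribonuclease of transcription termination. Its region had 21.2 normalised reads at 24 h, against 0.770 at 0 h, and is listed at a p of 1 in the authors' deposited table. Beside Tf2-6 lies the histidine kinase gene mak2, whose region had 3.97 normalised reads at 24 h, against 0.770 at 0 h (FDR = 0.125), in the authors' deposited table. The nearest coding gene upstream of Tf2-11 is SPOM_SPBC1289.14, 1057 bp from its body. Its region had 7.32 normalised reads at 24 h, against 0.770 at 0 h, and was not called in the authors' deposited table. The nearest coding gene downstream of Tf2-11, 2736 bp from its body, is the flocculin gene pfl5. Its region had 139 normalised reads at 24 h, against 42.0 at 0 h (FDR = 0.526), in the authors' deposited table. The genes atg44 beside Tf2-4 and pvg2 beside Tf2-6 lay under no region. Library C had 0 reads in the regions within 2 kb of the members' bodies, at dhp1, at mak2 and 1680 bp from Tf2-11, where A had 124, 20 and 41. The region over pfl5, in which most 50-base words are repeated, had 271 reads of C beside 525 of A and 71 of B.

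The LTRs were counted in the same way. Of 238 annotated LTRs, 25 flank a Tf2 body, and 1 of these, upstream of Tf2-1, lay under a region, which reaches it from the splicing helicase gene brr2. Of the 213 others, 16 lay under regions wider than 10 kb and 2 under narrower ones, together 8.45%, while the listed regions covered 35.8% of the 3 chromosomes. Of these 2, the LTR at chromosome III 31728 to 31925 lay under a region called higher at 24 h, with 61.8 normalised reads at 24 h, against 0.770 at 0 h (FDR = 0.00158), in the authors' deposited table.

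Of 21 listed genes of retrotransposon control, 6 lay under no region and could not be called. Of the 15 under a region, 2 lay under one called higher at 24 h and 0 under one called lower. Another 8 lay under a tested region that was not called and 5 under a region with a p of 1. The 2 of 15 stand beside 20.7% called higher of all 2192 listed regions. The transcription factor gene atf1, whose product guides integration of the related element Tf1 to promoters, rose at least 27.4-fold to 63.1 normalised reads at 24 h, against the 0 h minimum (FDR = 0.000960), in the authors' deposited table. The gene sap1, encoding a DNA-binding protein that also steers Tf1 integration, rose at least 18.0-fold to 41.6 normalised reads at 24 h, against the minimum (FDR = 0.00250), in the authors' deposited table. Among the genes not called, abp1, singled out after its values were seen, had 75.3 normalised reads at 24 h, against 11.1 at 0 h (FDR = 0.208), in the authors' deposited table. The HIRA chaperone genes hip1, hip3 and hip4 were listed with a p of 1, and cbh1, cbh2 and slm9 lay under no region. The median log2 change of the 15 listed genes under a region was 2.76, beside 2.43 for all 2192 regions.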

How the data were processed

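H3K9me2 was measured by ChIP-seq in wild type. The submitters' processing notes name Bowtie2 2.2.7, MACS2 2.1, DiffBind 1.16.3, DESeq2 and build ASM294v2, with no role or order. For each group the authors deposited, per the file headers, log2 means of normalised reads per region, a log2 fold of 0 h minus 24 h, whose sign was turned here, and a p-value and an FDR. Depth and spread per library are not in the tables, so values stand without SD or n, and p-values measure only the spread between libraries, which may be technical. The design allowed for counts per library. Group means were found, so the authors' values were described in place of a fit. Folds against the minimum used 3 counts per library, a chosen floor. They are bounds on the deposited ratio and not on the true change.

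Reads per library were recovered from the smallest steps between group means, with a relative tolerance of 3e-14 and up to 600 normalised reads. The step of library C was the smallest unresolved step divided by 4, which resolved 2136 of 2138 means searched, against 1966 with a divisor of 2 and 2136 with 8. Of 2029 shifted values at 24 h 0 were resolved. Means rebuilt from the recovered reads with drawn weights gave 100% of 2175 regions back. They held the same number of libraries, so this cannot show that no other library had reads. The weight of B, 0.200, equals 1 read in 5 libraries, the number of digits in the name of the deposited set. Overlaps used the RefSeq annotation of ASM294v3 and copies were aligned with MAFFT 7.526 (Python 3.11.15). Words were matched exactly on both strands, and a second place in the same region also counted as elsewhere. Named were the members, the other Tf2 copies, genes under or next to their regions, and a list of 21 genes. Members and lists were chosen with earlier results of these data known. Alternatives changed the scaling, library, overlap, FDR and word length. Of all listed symbols 21 matched, cia1 as asf1.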

Additional observations from a re-analysis of the deposited data

Results flagged for a closer look

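At 5 of the 6 Tf2 regions 1 library at 24 h stood far above the others of its group. The gap between that library, C, and the next, divided by the range of the group, was 0.72 at Tf2-4, 0.73 at Tf2-6, 0.94 at Tf2-7, and 1.00 at Tf2-1 and Tf2-10. At Tf2-11, where A had 77 reads beside 189 in C, the gap was not large enough to stand out. At 0 h 1 library, E, stood far above the rest at Tf2-7, with a ratio of 1.00. These ratios assume 5 libraries per group and place the libraries without recovered reads at their minimum. Such a gap is common in these data, in which the ratio is 1.00 wherever a single library is above its minimum. Of the 1792 resolved regions whose highest library reached 20 normalised reads at 24 h, 64.5% had a gap this large, and of the 735 at 0 h 51.2% had. The rate of about 1 in 20 groups that chance gives for evenly spread samples therefore does not apply here. The 6 regions also share their libraries and nearly the same sequence.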

How the results depend on the processing

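The log2 changes of the members kept their direction under every alternative run. No run could turn it, because the scaling shifts were smaller than the changes and each member had signal in 2 libraries at 24 h. With both times scaled to the same total the changes were 6.61 (Tf2-4), 6.18 (Tf2-6) and 6.28 (Tf2-11). They were 4.35, 3.93 and 4.02 with the median over tested regions made equal, which moves every log2 change by -1.72. With single recovered libraries left out they ranged from 4.24 to 6.39 at Tf2-4, from 3.81 to 5.96 at Tf2-6 and from 4.39 to 6.06 at Tf2-11, each lowest without library C. Libraries without recovered reads could not be left out. With the LTRs counted in, the regions covered 50.9%, 53.8% and 53.6% of Tf2-4, Tf2-6 and Tf2-11. The 3 called copies stayed 3 at an FDR of 0.01, which 13.4% of all regions passed as higher, and with bodies extended by 500 bp, and 6 copies had a log2 change of at least 1, as had 69.5% of all regions. The share of the members' words found elsewhere, 97.8% at its lowest, became 98.6% with 36 bases, 93.8% with 100 and 63.7% with 400, a length added after the data were seen. Extending bodies by 1000 bp, also added later, made 7 copies of 13 with a region. No paired analysis was possible because the tables hold 1 mean per group. Depth bears most on values near the minimum of 0.770 normalised reads.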

Other observations

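The 6 other regions with more than 50% of their 24 h signal from library C were named after their values were seen. Adjoining regions lay over SPOM_SPBPJ4664.02 on chromosome II, at 687713 to 692114 and 692920 to 699405, with 290 and 274 reads of C at 24 h. Unlike the Tf2 members, they were marked at 0 h as well, with 252 and 293 reads in D and 237 and 186 in E. The region over the spore-killer family gene wtf4 had 68 reads of C and 34 of A at 24 h, against 67 of D and 1 of E at 0 h. The region over cox1102 and rpn502 had 31 reads of C and 9 of A at 24 h, against 0 of D and E at 0 h, and it was called higher at 24 h (FDR = 0.0355) in the authors' deposited table. The regions over gfa1 and cid13 held 8 and 4 reads of C at 24 h, against 34 and 30 of E and 0 and 7 of D at 0 h, and none of their 50-base words occurs elsewhere in the genome.

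Around the Tf2 copies with no region over the body, the nearest regions held different amounts of library C. The region 919 bp from the body of Tf2-13 had 107 reads of A and 0 of B and C at 24 h, and that 1679 bp from Tf2-3 had 147 of A, 61 of B and 0 of C. The region 1647 bp from Tf2-12 had 254 of A, 92 of B and 12 of C. Library C was higher 1685 bp from Tf2-2, with 73 reads beside 214 of A and 60 of B, and 1500 bp from Tf2-9, with 55 beside 115 of A and 12 of B.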
